A study of Mus musculus with 20 samples.

Results

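Bone marrow-derived macrophages treated for 24 h with DSHN and GW3965 together were compared with macrophages given the solvent DMSO. The comparison rests on 10 of the 20 libraries of the series, 5 with both compounds (titled DSHNplusGW, called the combination here) and 5 with DMSO, chosen by the library titles alone. Marrow cells from C57BL/6 female mice, with no engineered allele named, were grown in medium with recombinant murine M-CSF at 20 ng/mL, a factor that drives marrow cells to become macrophages, and then plated in 6-well plates. DSHN was used at 50 µM and GW3965 at 1 µM, and the series gives no other dose for the combination. Per the labels the 5 libraries of a group are biological replicates, but nothing says whether they came from separate mice, so the p-values measure the spread between these samples, which may be technical. The age of the mice is not given in the sources used here. The remaining 10 libraries, 5 with each compound alone, entered the estimate of the spread.

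GW3965 is an agonist of the liver X receptors (LXR alpha and LXR beta), nuclear receptors that are activated by oxysterols and bind DNA together with the retinoid X receptor. In macrophages LXR is known for switching on genes that export cholesterol, make and desaturate fatty acids and clear dying cells. NR0B2, the receptor that DSHN is described as activating, is a nuclear receptor without a DNA-binding domain that represses others, and the series describes it as an inhibitor of LXR. The comparison of both compounds with DMSO asks what macrophages transcribe when both receptors are addressed at once.

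Values are read counts per gene, made comparable between libraries with TMM factors and called CPM. Changes are log2 fold changes (also written log2 change) of the combination over DMSO from edgeR's quasi-likelihood test. The standard error (SE) was derived as the absolute log2 fold change over the square root of the test's F statistic. All p-values of genes are adjusted by the method of Benjamini and Hochberg over the 13307 genes tested. A gene is said to have risen or fallen where that adjusted p was under 0.05. Each change is also given after a length correction, which takes out of every library its own trend of counts with exon length, and "in both fits" means a call of the same sign without and with it. A value after "rose by" or "fell by", in brackets or as the median of a list is a log2 fold change. Gene positions are those of the count files, on GRCm39.

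The combination libraries differed from the DMSO libraries in how counts were spread over short and long genes. The slope of a library's log2 CPM on the log2 of exon length was −0.124 to −0.0943 with the combination and 0.0316 to 0.0629 with DMSO. The groups did not overlap, and the difference of −0.158 had a two-sided exact permutation p of 0.00794, which is the lowest p available with groups of 5 (adjusted p = 0.0159 over 4 library measures). Slopes with DSHN alone ran from 0.00566 to 0.063 and with GW3965 alone from 0.0263 to 0.046. Mitochondrial rRNA and tRNA genes, as a share of counts, moved with the same groups, at 0.201% to 0.246% with the combination and 0.114% to 0.136% with DMSO (exact permutation p = 0.00794, adjusted p = 0.0159); its part in the results was not tested. Library totals were 16855029 to 21265191 and 18082505 to 21990859 counts (exact permutation p = 0.0952, adjusted p = 0.127). The differences in slope and in mitochondrial share were already known from an earlier analysis of these data. Their p-values therefore describe known differences and are no fresh test of them. The trend and the treatment are carried by the same 5 libraries and cannot be told apart. Markers of macrophages were abundant in both groups, with 16810 to 18470 CPM summed over 10 genes with the combination and 16490 to 17770 CPM with DMSO. Tested markers of neutrophils, T and NK cells, B cells, dendritic cells and mast cells summed to at most 8.11 CPM per list in any of the 10 libraries, and the globin genes had no count. Osteoclast markers summed to 26.2 to 28.7 CPM with the combination and 27.75 to 31.3 CPM with DMSO. Of 3 tested, 1 fell without and 3 with the correction. Endothelial markers summed to 6.16 to 7.27 CPM and 9.66 to 11.1 CPM. The part of these 2 lists in the results was not tested. Markers of fibroblasts and stroma, mostly Col1a1 and Col1a2, summed to 1904 to 2324 CPM with the combination and 2283 to 2877 CPM with DMSO, and monocyte markers to 29.1 to 32.8 CPM and 44.1 to 56.8 CPM; their part in the results was not tested.

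**Figure D1:**
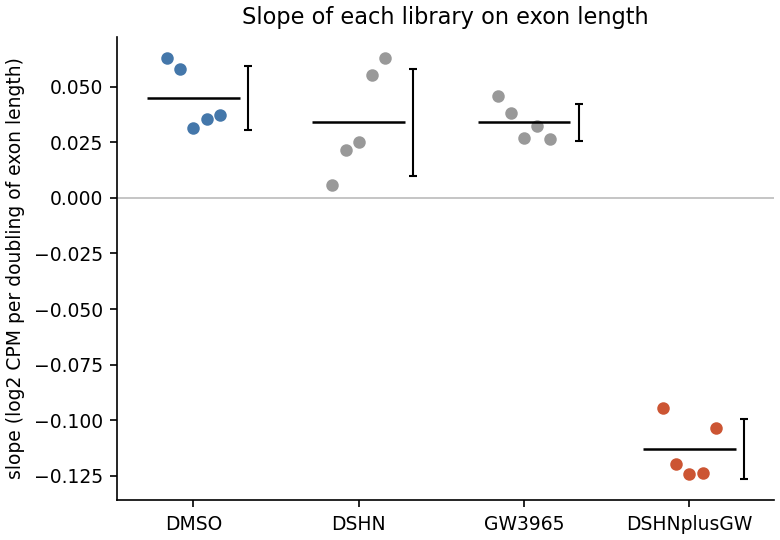
Slope of each library's log2 CPM on the log2 of exon length (log2 CPM per doubling of exon length), by treatment. Points are libraries, horizontal lines are group means and bars at the side are SDs (n = 5). All 5 combination libraries lie between −0.124 and −0.0943, and the 15 others are above 0.

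In each fit most of the genes tested differed between the combination and DMSO libraries, mostly by small amounts. Of the 13307 genes tested, 4248 rose (31.9%) and 4381 fell (32.9%), and the libraries of the groups did not overlap in CPM for 6613 genes (49.7%). Only 248 of the genes that rose and 342 of those that fell changed more than 2-fold. With the length correction 3829 genes rose (28.8%) and 3900 fell (29.3%), of which 204 and 261 changed more than 2-fold. A call of the same sign in both fits was made for 2922 genes that rose (22%) and 3275 that fell (24.6%), which is 71.8% of all genes called without the correction. A further 2270 genes lost their call with the correction, 1370 gained one, and 162 were called with opposite signs. The counts given for gene lists are read against these shares, which differ with exon length, as described next. For large changes the sign rarely depended on the correction, but the size often did. Of the 590 genes that changed more than 2-fold, 561 were called with the same sign after it and 382 still exceeded 2-fold.

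The correction moved the shortest and the longest genes most. Among the decile of genes with the shortest exons (56 to 1304 bases in all), 69.3% rose and 2.71% fell, with a median log2 fold change of 0.42. After the correction 23.2% of these genes rose and 17.0% fell, with a median of 0.034. Among the decile with the longest exons (9842 to 114472 bases), 14.8% rose and 57.8% fell, with a median of −0.28, and after the correction 29.6% rose and 38.5% fell, with a median of −0.058. The middle deciles, with exons of 3121 to 4535 bases, had medians between −0.073 and −0.011 without the correction. Calls in both fits kept much of the trend. In the shortest decile 23.2% rose and 2.71% fell in both fits, and in the longest 14.7% rose and 38.5% fell. For lists of short or long genes, counts in both fits therefore do not compare directly with the shares over all genes. Of the 162 genes with opposite signs, 70 lay in the shortest decile and 31 in the longest. A trend with the genomic span of genes was left after the exon length correction. The decile with the longest span (115202 to 2390413 bases from start to end) had a median of −0.33 without a correction, −0.16 with the length correction and −0.012 where span was taken out as well.

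**Figure D2:**
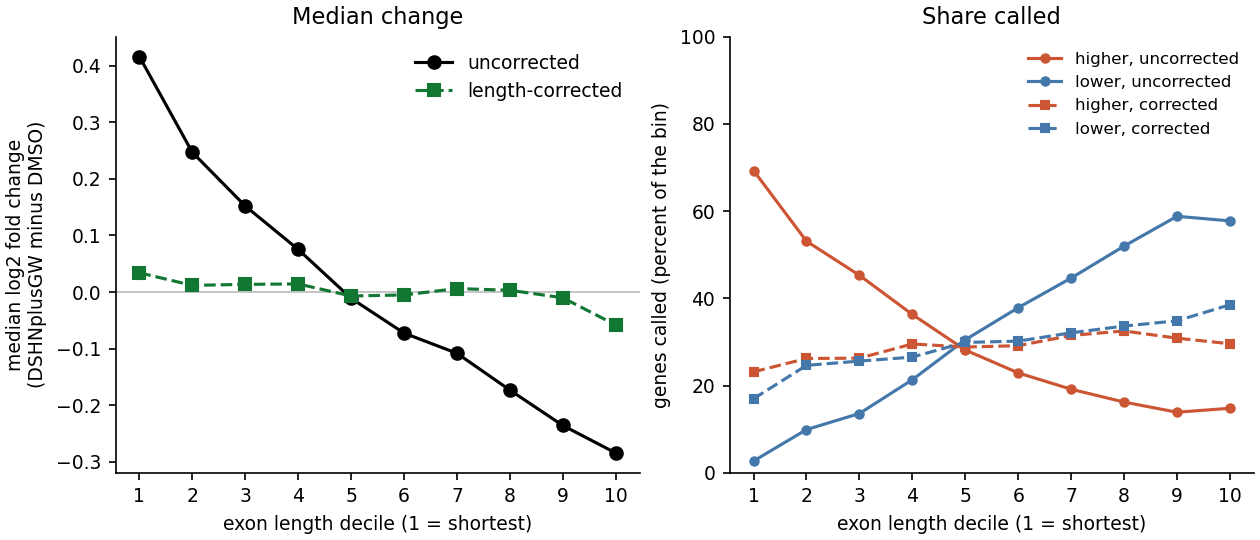
Change by deciles of exon length, from the shortest (1) to the longest (10). Left, the median log2 fold change of the combination over DMSO; right, the percent of genes called higher or lower; circles without and squares with the length correction. The uncorrected medians fall from 0.42 to −0.28, and the corrected ones lie between −0.058 and 0.034.

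Of the receptors that the compounds address, the LXR genes changed little at the transcript level, and Nr0b2 was too low to judge. Nr0b2, the gene of the DSHN target, had 5, 4, 8, 3 and 3 counts in the DMSO libraries and 3, 2, 7, 5 and 2 with the combination, too few for the test. Nr1h2, which encodes LXR beta, had 51.7, 52.4, 50.7, 49.3 and 53.9 CPM with DMSO and 52.2, 54.8, 56.2, 53.2 and 50.96 CPM with the combination. Nr1h3, which encodes LXR alpha, had 14.1, 13.2, 14.8, 15.7 and 14.01 CPM and 13.4, 16.02, 16.5, 15.7 and 15.4 CPM. The groups overlapped for both LXR genes, and their log2 fold changes of 0.052 (SE 0.042, adjusted p = 0.282) and 0.10 (SE 0.073, adjusted p = 0.249) did not pass the test.

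Their partner and a corepressor did change. Rxra (GeneID 20181, chromosome 2, 27566457 to 27653331), the retinoid X receptor gene, had 104, 104, 106, 104 and 97.2 CPM with DMSO and 135, 125, 133, 128 and 122 CPM with the combination. Every combination library was above every DMSO library, and the log2 change was 0.32 (SE 0.037, adjusted p = 3.21e-08) and 0.48 (SE 0.035) after the correction. Ncor1, a corepressor that holds unliganded nuclear receptors silent and of whose exon bases 12.9% also lie in another gene on the opposite strand, went from 224 ± 12.3 CPM (SD, n = 5) to 140 ± 7.97 CPM, by −0.68 (SE 0.054, adjusted p = 2.73e-11) and −0.43 (SE 0.042) corrected. The gene has 11483 bases of exon, and taking out span as well left −0.34. Among 23 tested genes of nuclear receptors and cofactors, 9 rose and 9 fell, not far from the 31.9% and 32.9% over all genes, and 8 rose and 7 fell in both fits. The coactivator genes Ncoa1 (−0.65, corrected −0.41) and Ep300 (−0.62, corrected −0.38) fell, while Rara (0.51), a retinoic acid receptor gene, and Ncoa4 (0.28), a coactivator that also delivers ferritin to autophagy, rose.

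The largest rises included LXR target genes of cholesterol export and fatty acid desaturation. LXR and its partner recognise a direct repeat of the letters AGGTCA with 4 bases between the copies (DR4). In 300 bases around the annotated start of each gene (250 before, 50 after; RefSeq, GRCm38.p6), a DR4 with up to 3 mismatches in its 12 fixed bases was found on either strand in 21.9% of 32851 promoters, and with up to 2 mismatches in 3.02%. Of 16 named genes from both LXR lists, 14 had a promoter in the table and 3 held such a match, those of Abca1, Arl4c and Srebf1. Counted by gene in the same way, at any start, 55 of all 234 named genes with a promoter held one. So did 4 of 10 in the list of antioxidant genes described below. Such matches thus do not set the LXR lists apart. The promoters of Abca1 (chr4:53159846-53160145, minus strand) and of the most downstream of 3 starts of Srebf1 (chr11:60210422-60210721, minus strand) are shown because both genes rose strongly and both matches read alike. Capitals mark the match, which lies on the opposite strand, has 3 mismatches and begins 67 bases before the start in Abca1 and 182 bases before it in Srebf1.
Abca1 promoter: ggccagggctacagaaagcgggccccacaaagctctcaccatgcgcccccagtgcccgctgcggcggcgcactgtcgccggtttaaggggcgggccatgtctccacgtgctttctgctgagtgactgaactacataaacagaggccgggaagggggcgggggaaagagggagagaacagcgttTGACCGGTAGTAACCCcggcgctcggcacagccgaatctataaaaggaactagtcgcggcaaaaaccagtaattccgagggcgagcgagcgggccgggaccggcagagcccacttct
Srebf1 promoter: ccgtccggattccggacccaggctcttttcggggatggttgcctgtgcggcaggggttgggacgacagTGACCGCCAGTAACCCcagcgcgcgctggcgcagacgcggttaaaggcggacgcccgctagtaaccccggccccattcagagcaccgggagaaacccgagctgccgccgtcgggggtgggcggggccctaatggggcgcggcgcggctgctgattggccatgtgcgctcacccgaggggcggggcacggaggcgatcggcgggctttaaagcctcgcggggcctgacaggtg

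Abca1 (GeneID 11303, chromosome 4, 53030789 to 53159988) and Abcg1 (GeneID 11307, chromosome 17, 31276668 to 31336958) encode the transporters that load cholesterol onto lipoproteins outside the cell. Abca1 had 229.7, 264, 219, 173 and 157 CPM in the DMSO libraries and 1286, 1295, 1256, 1131 and 1252 CPM with the combination. Abcg1 had 78.2, 97.4, 91.8, 66.2 and 60.3 CPM and 807, 796, 799.8, 679 and 730.4 CPM. Every combination library exceeded every DMSO library several-fold for both genes. The log2 fold changes were 2.58 (SE 0.13, adjusted p = 5.52e-15) for Abca1 and 3.27 (SE 0.10, adjusted p = 4.16e-19) for Abcg1, and 2.83 (SE 0.12) and 3.44 (SE 0.10) with the correction. Among the libraries of the single compounds, GW3965 alone had 3150 ± 328 CPM of Abca1 and 1286 ± 107 CPM of Abcg1, and DSHN alone had 286 ± 62.5 CPM and 96.6 ± 11.5 CPM.

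Genes of the lipoproteins that receive the cholesterol rose with them. Apoe (GeneID 11816, chromosome 7, 19430169 to 19434326), the main apolipoprotein made by macrophages, had 2240, 2449, 2340, 2182 and 2102 CPM with DMSO and 6018, 6173, 6088, 5255 and 5261 CPM with the combination. The groups did not overlap, and the log2 fold change was 1.35 (SE 0.058, adjusted p = 3.78e-16) and 1.24 (SE 0.059) corrected. Apoc1 and Apoc2 are small apolipoprotein genes beside Apoe. Apoc1 had 0, 1, 0, 0 and 0 counts in the DMSO libraries and 14, 5, 15, 13 and 11 with the combination. Apoc2 had 1, 0, 2, 2 and 1 counts and 10, 10, 13, 6 and 7, and 60% of its exon bases are shared with another gene model. Both were thus at 0 to 2 counts with DMSO and counted in every combination library. Apoc1 entered the test only through the libraries given GW3965, alone or in the combination, and Apoc2 did not pass the filter, so no fold change is given for either. Pltp, which moves phospholipids between lipoproteins, rose from 160.3 ± 17.4 CPM to 319 ± 38.9 CPM (log2 change 0.99, SE 0.086, adjusted p = 1.63e-10, corrected 0.80), with 26.8% of its exon bases also in Ctsa on the opposite strand.

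The list of sterol export and lipoprotein genes, with Apoc1 left out, had 8 tested genes, among them Abca1, Abcg1, Apoe and Pltp. Of these 8 genes 6 rose and 2 fell in both fits. Their median log2 fold change was 0.78 (0.67 corrected), against 0.010 (0.005 corrected) over all genes tested. The genes that fell were Abca7, a relative of Abca1 (−0.71, SE 0.066, adjusted p = 6.04e-10, corrected −0.50), and Npc1 (−0.38, SE 0.075, adjusted p = 8.87e-05, corrected −0.22). Npc1 and Npc2 pass cholesterol out of the lysosome, and Npc2 rose by 0.56 (corrected 0.55) from 802 ± 27.2 CPM to 1181 ± 36.4 CPM, so the genes of this pair moved in opposite directions.

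The second list of LXR targets had 9 of 12 genes higher and 2 lower in both fits, with a median of 0.70 (0.74 corrected). Mylip (GeneID 218203, chromosome 13, 45543197 to 45565498), a ubiquitin ligase that acts on lipoprotein receptors, had 32.8, 38.8, 36.2, 30.4 and 27.5 CPM with DMSO and 163, 163, 174, 154 and 169 CPM with the combination. No libraries overlapped, and the log2 fold change was 2.31 (SE 0.065, adjusted p = 4.69e-20) and 2.35 (SE 0.064) corrected. Cd5l, a secreted scavenger receptor protein of macrophages, rose by 1.58 (corrected 1.42) and Arl4c, a small GTPase, by 1.27 (corrected 1.32). Lpcat3, which places polyunsaturated fatty acids into phospholipids, had 35.9, 40.00, 35.2, 38.03 and 36.8 CPM and 85.95, 88.5, 87.9, 82.3 and 82.1 CPM. Its libraries did not overlap, and the log2 change was 1.199 (SE 0.040, adjusted p = 1.88e-18) and 1.15 (SE 0.040) corrected; 10.1% of its exon bases also lie in Emg1 on the opposite strand. The genes that fell were Myo1e, a class I myosin, from 292 ± 12.2 CPM to 129 ± 9.48 CPM (−1.18, SE 0.058, adjusted p = 4.75e-15, corrected −1.06), and Tmem26, from 9.89 ± 1.51 CPM to 3.96 ± 0.485 CPM (−1.32, SE 0.13, adjusted p = 8.43e-10, corrected −1.19). Lpl, the lipoprotein lipase gene, rose by only 0.18 (corrected 0.24).

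**Figure D3:**
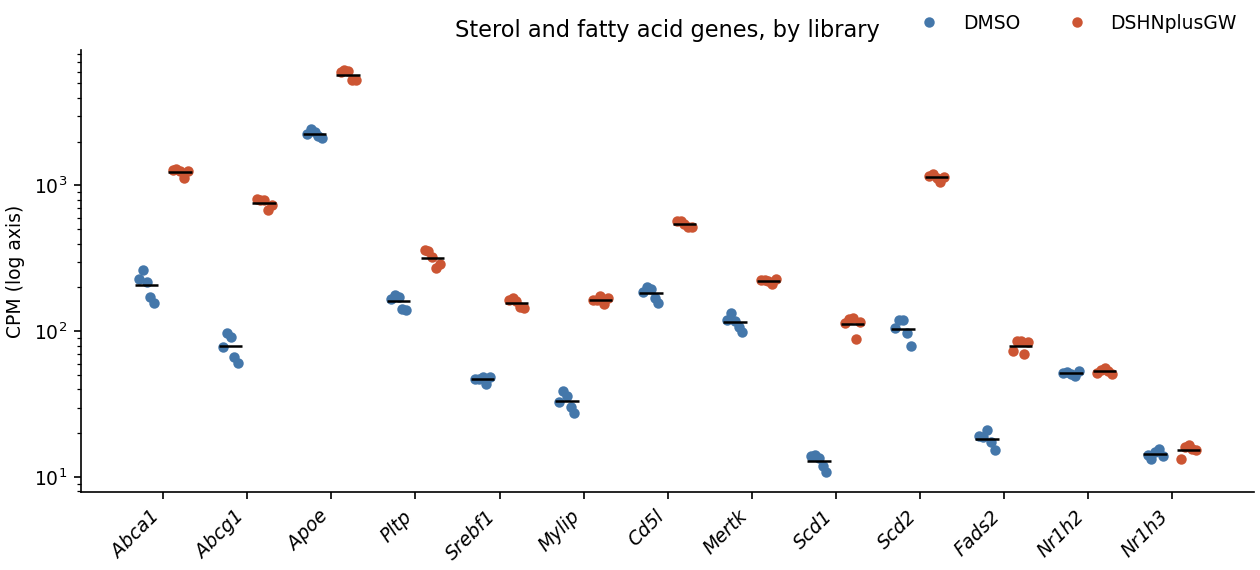
CPM (log axis) of 13 sterol and fatty acid genes in the 5 DMSO libraries (blue) and the 5 combination libraries (red), with group means as lines. The groups are apart for 11 genes and overlap for Nr1h2 and Nr1h3.

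Desaturases led the fatty acid genes. Scd2 (GeneID 20250, chromosome 19, 44282115 to 44295303), a stearoyl-CoA desaturase gene and the largest rise among genes with at least 5 CPM, called alike in both fits and with no overlap of libraries, had 105, 119.6, 120.1, 97.7 and 79.3 CPM with DMSO and 1162, 1204, 1121, 1062 and 1151 CPM with the combination. Scd1, its neighbour on chromosome 19, had 14.1, 14.2, 13.6, 11.9 and 10.8 CPM and 114, 122, 123, 88.1 and 115 CPM. Even the lowest combination library stood far above the highest DMSO library for both. The log2 fold changes were 3.45 (SE 0.076, adjusted p = 6.8e-22) for Scd2 and 3.11 (SE 0.080, adjusted p = 1.75e-20) for Scd1, and 3.59 (SE 0.072) and 3.23 (SE 0.078) corrected. Fads2, the delta-6 desaturase that starts the synthesis of long polyunsaturated fatty acids, had 19.3, 18.8, 21.1, 17.6 and 15.3 CPM and 73.3, 85.4, 86.4, 70.1 and 84.1 CPM. Again the groups were separate, and the log2 change was 2.11 (SE 0.066, adjusted p = 4.62e-19) and 2.06 (SE 0.065) corrected. Srebf1 (GeneID 20787, chromosome 11, 60089910 to 60113407) encodes the transcription factor SREBP1, which drives this pathway. It had 47.2, 47.2, 48.8, 43.5 and 49.01 CPM with DMSO and 164, 168, 163, 148 and 145 CPM with the combination. No combination library came near the DMSO range, and the log2 fold change was 1.74 (SE 0.049, adjusted p = 4.69e-20) and 1.86 (SE 0.046) corrected.

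The enzymes before the desaturases did not follow them as a group. Fasn, the fatty acid synthase gene, had 116, 112, 106, 114 and 110.2 CPM with DMSO and 132, 129, 117, 114 and 118 CPM with the combination. The groups overlapped in part, and the log2 fold change of 0.13 (SE 0.056, adjusted p = 0.0505) missed the threshold, while the corrected one of 0.38 (SE 0.048, adjusted p = 2.25e-07) passed it. The uncorrected call passed when combination 3, 4 or 5 was left out. Acly, which supplies cytosolic acetyl-CoA, fell by 0.30 (corrected −0.071), and Acaca, which makes malonyl-CoA, did not pass the test in either fit (−0.15, corrected 0.11). Of 20 genes of fatty acid synthesis and desaturation, 11 rose and 5 fell, and 13 rose and 4 fell with the correction. Acyl-CoA synthetase genes were among the rises, with Acsl3 at 1.41 (SE 0.047, adjusted p = 1.88e-18) and Acsl4 at 0.59, as was Mid1ip1, whose product helps acetyl-CoA carboxylase to assemble (1.08, SE 0.038, adjusted p = 4.18e-18, corrected 0.92). The elongase gene Elovl7 fell (−1.21, corrected −1.06). Acsl3 shares 10.6% of its exon bases with another gene.

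Genes of cholesterol synthesis mostly rose. Of 20 enzymes 17 rose and 1 fell, and 18 rose and none fell with the correction, with medians of 0.56 and 0.52. Fdps, which makes farnesyl diphosphate, had 37.7, 37.6, 41.2, 41.00 and 39.1 CPM with DMSO and 80.5, 84.99, 87.3, 89.4 and 83.04 CPM with the combination. The groups did not overlap, and the log2 fold change was 1.11 (SE 0.048, adjusted p = 3.45e-16) and 0.85 (SE 0.040) corrected. Fdft1, the squalene synthase gene, has long exons (10420 bases) and rose by 0.64, and by 0.89 with the correction. Sqle, the squalene epoxidase gene, did not pass in either fit (−0.040, corrected −0.10), and the gene that fell, Hsd17b7 (−0.21, SE 0.076, adjusted p = 0.0185), lost its call with the correction and when DMSO 5 or combination 1 or 2 was left out.

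Sterol sensing and uptake genes were divided. Insig1, which retains SREBP in the endoplasmic reticulum and is itself an SREBP target, had 61.4, 59.8, 62.3, 58.6 and 57.7 CPM with DMSO and 116, 118, 114, 123 and 125 CPM with the combination. All combination libraries were higher, and the log2 change was 0.99 (SE 0.039, adjusted p = 6.21e-17) and 0.91 (SE 0.037) corrected. Scap, the escort of SREBP, fell by 0.44 (corrected −0.34), and Mbtps1, the protease that releases it, fell by 0.51 (corrected −0.40). Lrp1, a large endocytic receptor, had 2341, 2166, 2175, 2365 and 2155 CPM and 1293, 1363, 1270, 1252 and 1243 CPM. The groups lay well apart, and the log2 fold change was −0.80 (SE 0.063, adjusted p = 2.23e-11) and −0.56 (SE 0.058) corrected. Over the 10 tested genes of this list, 6 rose and 4 fell in both fits.

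Outside the lipid lists, the largest rises by the limits given for Scd2 were in an enzyme of NAD breakdown and an inhibitor of interleukin 18. Cd38 (GeneID 12494, chromosome 5, 44026151 to 44069716), which hydrolyses NAD, had 4.91, 4.45, 5.22, 3.599 and 3.87 CPM with DMSO and 28.8, 35.1, 35.6, 35.7 and 37.3 CPM with the combination. Il18bp, which neutralises interleukin 18, had 5.32, 3.93, 5.08, 4.02 and 4.198 CPM and 26.8, 24.97, 27.01, 26.7 and 25.8 CPM. Both genes were low with DMSO (means of 4.41 and 4.51 CPM) and several-fold higher in every combination library. They thus met the 5 CPM limit only with the combination. The log2 fold changes were 2.95 (SE 0.088, adjusted p = 2.08e-19) and 2.53 (SE 0.077, adjusted p = 2.82e-19), and 2.92 (SE 0.089) and 2.63 (SE 0.076) corrected; 29.4% of the exon bases of Il18bp also lie in Rnf121 on the same strand. Il18 itself rose by 0.46 (corrected 0.37). Stab2, a scavenger receptor for hyaluronan, had 1.94, 2.32, 1.51, 1.72 and 1.53 CPM and 7.41, 8.55, 7.95, 7.15 and 8.41 CPM. Its libraries did not overlap, and the log2 change was 2.12 (SE 0.13, adjusted p = 2.41e-13) and 2.37 (SE 0.12) corrected. Paqr9, a member of the progestin and adipoQ receptor family (2.15, SE 0.16, adjusted p = 1.55e-11), and Cfap126, a protein of cilia (2.14, SE 0.14, adjusted p = 8.31e-13), complete the 12 largest rises. They had 5.303 ± 0.8297 CPM and 7.75 ± 0.358 CPM with the combination and means of 1.21 and 1.73 CPM with DMSO. Stab2, Paqr9 and Cfap126 too met the 5 CPM limit only with the combination.

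Antioxidant genes controlled by the transcription factor NRF2 mostly rose, with smaller changes after the length correction. The median exon length of the list was 2267 bases, against 3758 over all genes tested. Of 25 genes 19 rose and 2 fell, and 21 rose and 3 fell with the correction, while the median went from 0.41 to 0.20. NRF2 binds the antioxidant response element, whose core TGACNNNGC was found in 12.4% of all promoters. Counted by gene, at any start, 4 of the 10 genes with a promoter, from 11 named in this list, held it. They were G6pdx, Gclm, Mgst1 and Srxn1. Over all named genes with a promoter it was 47 of 234, and the difference was not tested. The promoters of Gclm (chr3:122245307-122245606, plus strand) and of the first of 2 starts of Mgst1 (chr6:138140277-138140576, plus strand) are shown, since these genes are described next. Capitals mark the core, which lies on the opposite strand and begins 134 bases before the start in Gclm and 56 bases before it in Mgst1.
Gclm promoter: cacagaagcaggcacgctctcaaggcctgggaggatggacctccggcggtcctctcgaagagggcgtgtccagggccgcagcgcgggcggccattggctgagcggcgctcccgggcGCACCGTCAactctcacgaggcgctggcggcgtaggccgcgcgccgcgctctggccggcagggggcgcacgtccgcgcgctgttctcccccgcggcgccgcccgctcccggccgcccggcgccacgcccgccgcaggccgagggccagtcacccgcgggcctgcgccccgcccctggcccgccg
Mgst1 promoter: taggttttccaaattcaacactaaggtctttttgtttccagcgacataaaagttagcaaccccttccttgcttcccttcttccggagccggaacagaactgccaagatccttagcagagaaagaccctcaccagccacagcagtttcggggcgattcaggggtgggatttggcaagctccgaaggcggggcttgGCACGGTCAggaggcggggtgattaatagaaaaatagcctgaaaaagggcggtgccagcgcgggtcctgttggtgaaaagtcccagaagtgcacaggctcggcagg

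Mgst1 (GeneID 56615, chromosome 6, 138117525 to 138133753), a glutathione transferase of membranes, had 58.9, 64.1, 64.02, 55.6 and 55.2 CPM with DMSO and 148, 164, 162, 144 and 146 CPM with the combination. Gclm (GeneID 14630, chromosome 3, 122039206 to 122060864), the modifier subunit of the enzyme that starts glutathione synthesis, had 231, 226, 225, 237 and 239 CPM and 338, 355, 345, 369 and 347 CPM. Neither gene showed any overlap between the groups. Their log2 fold changes were 1.36 (SE 0.058, adjusted p = 3.22e-16) and 0.60 (SE 0.036, adjusted p = 2.19e-13), and 1.08 (SE 0.058) and 0.44 (SE 0.031) corrected. Catalase (Cat) rose from 619 ± 40.4 CPM to 1134 ± 48.6 CPM (0.87, SE 0.044, adjusted p = 9.99e-15, corrected 0.78). Gstm1, another glutathione transferase, rose by 0.78 (corrected 0.50), Blvrb, a biliverdin reductase, by 0.78 (corrected 0.42) and Nqo1, a quinone reductase, by 0.28 (corrected 0.28). Slc7a11, which imports the cystine needed for glutathione, went the other way, with 14.1, 10.2, 13.00, 13.2 and 15.1 CPM with DMSO and 7.36, 6.897, 6.66, 7.44 and 7.54 CPM with the combination. Here every combination library was lower, and the log2 change was −0.87 (SE 0.11, adjusted p = 9.73e-08) and −0.62 (SE 0.10) corrected.

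Iron and metal genes showed the same mixture. Slc40a1 (GeneID 53945, chromosome 1, 45947230 to 45965690), the iron exporter ferroportin, had 299, 349, 316, 291 and 281 CPM with DMSO and 687, 712, 708, 668 and 674 CPM with the combination. The groups were separate, and the log2 fold change was 1.17 (SE 0.043, adjusted p = 1.86e-17) and 1.18 (SE 0.042) corrected. The metallothionein genes Mt1 and Mt2, which bind zinc and copper, rose by 1.16 and 1.19 (corrected 0.86 and 0.72). Slc39a14, an importer of zinc and iron, fell from 53.7 ± 4.47 CPM to 25.1 ± 2.02 CPM (−1.10, SE 0.063, adjusted p = 9.25e-14, corrected −0.85). Ftl1, the ferritin light chain gene with 970 bases of exon, rose by 0.49, of which 0.12 was left after the correction. Of 14 tested genes 8 rose and 4 fell, and 9 rose and 2 fell with the correction, and 2 fell uncorrected without DMSO 4 or combination 5.

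**Figure D4:**
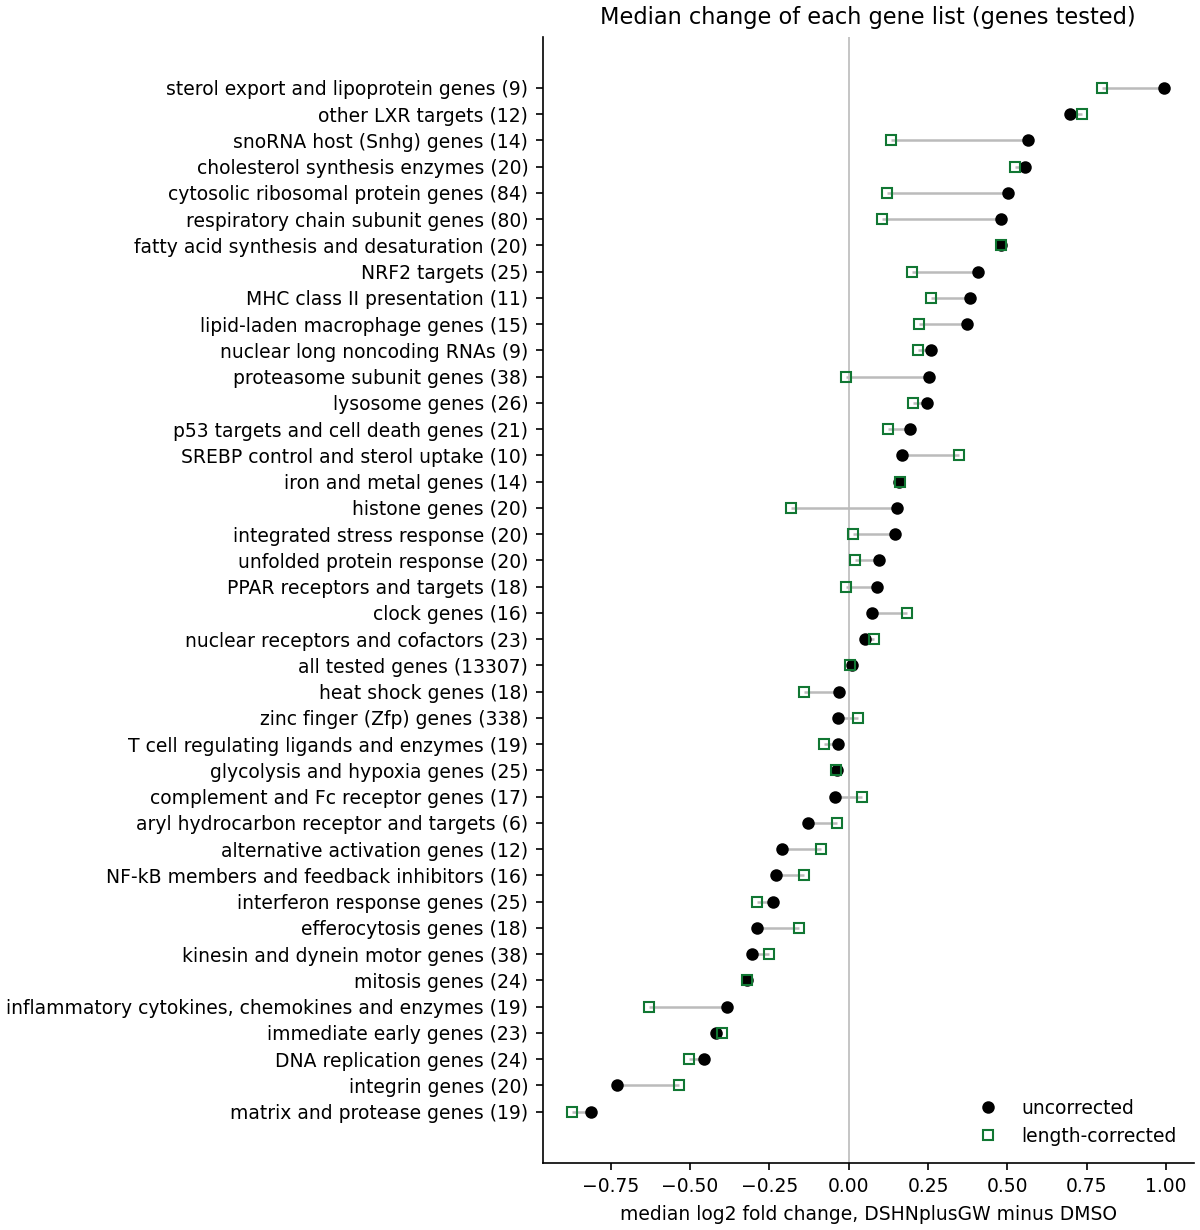
Median log2 fold change of the combination over DMSO for each gene list, with the number of genes tested in parentheses. Filled circles are uncorrected and open squares length-corrected medians. Lists of short genes (ribosomal proteins 0.50 and 0.12, respiratory chain 0.48 and 0.10) move far with the correction, while the matrix and protease list (−0.81 and −0.87) and the integrin list (−0.73 and −0.54) stay low.

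Inflammatory mediators changed in both directions, with the largest falls in Tnf, Ptgs2 and monocyte chemokines. Tnf (GeneID 21926, chromosome 17, 35418343 to 35420983), the gene of tumour necrosis factor, had 18.8, 10.7, 12.5, 15.96 and 21.2 CPM with DMSO and 6.42, 5.53, 4.83, 6.64 and 6.62 CPM with the combination. Ptgs2, the gene of cyclooxygenase 2, had 20.5, 15.8, 16.1, 17.9 and 20.8 CPM and 4.78, 3.59, 3.06, 4.66 and 4.49 CPM. The DMSO libraries were all higher for both genes. The log2 fold changes were −1.39 (SE 0.17, adjusted p = 7.55e-08) and −2.14 (SE 0.12, adjusted p = 8.02e-14), and −1.62 (SE 0.17) and −2.05 (SE 0.12) corrected. Ccl2, the monocyte chemokine gene, varied among the DMSO libraries, with 89.9, 42.6, 54.1, 93.9 and 118 CPM, and had 27.01, 21.4, 17.6, 39.7 and 27.6 CPM with the combination. The lowest DMSO library was only just above the highest combination library, and the log2 fold change was −1.58 (SE 0.24, adjusted p = 2.68e-06) and −1.98 (SE 0.24) corrected. Ccl7, beside it on chromosome 11, fell by 1.57 (corrected −1.97), with groups that overlapped at the edge in CPM.

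Il1a went against this direction. The gene, which encodes interleukin 1 alpha, had 1.04, 0.805, 1.14, 0.574 and 0.491 CPM with DMSO and 2.72, 3.53, 3.38, 3.86 and 3.398 CPM with the combination. Although low in all libraries, it was higher in every combination library, and the log2 change was 2.02 (SE 0.18, adjusted p = 1.58e-10) and 1.84 (SE 0.18) corrected; 11.2% of its exon bases also lie in another gene on the opposite strand. Il10, the gene of an anti-inflammatory cytokine, rose by 0.64 (corrected 0.48), and Ccl6, a chemokine gene of macrophages, rose by 0.68 (SE 0.047, adjusted p = 3.07e-12, corrected 0.41). Il1b did not pass the test in either fit (−0.53, corrected −0.71). Ccl3 rose by 0.54 (SE 0.075, adjusted p = 5.7e-07) but not with the correction (0.13, SE 0.068, adjusted p = 0.108), and 38.4% of its exon bases are also in another gene on the opposite strand. Of 19 tested cytokine, chemokine and enzyme genes, 5 rose and 7 fell, close to the 31.9% and 32.9% over all genes, and 4 rose and 10 fell with the correction, with medians of −0.38 and −0.63. The median exon length of the list was 1101 bases, and the correction lowers short genes. In RNA from whole cultures, fewer cells of a kind and less RNA per cell cannot be told apart.

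Genes of NF-kB, the transcription factor behind many of these mediators, and of its inhibitors fell more often than they rose. Of 16 genes 3 rose and 8 fell, and 1 rose and 8 fell with the correction. Tnip3, an inhibitor of NF-kB signalling that is itself induced by inflammatory signals, had 99.8, 85.6, 94.8, 107 and 119 CPM with DMSO and 42.9, 40.5, 40.4, 50.2 and 48.4 CPM with the combination. No libraries overlapped, and the log2 fold change was −1.19 (SE 0.10, adjusted p = 3.86e-11) and −1.15 (SE 0.10) corrected. Tnfaip3, which encodes the inhibitor A20, fell by 0.58 (corrected −0.47), and Nfkb1, which encodes the p50 subunit, by 0.50 (corrected −0.40). Nfkbia, which encodes the inhibitor that holds NF-kB in the cytosol, had 70.1, 57.2, 64.7, 70.8 and 65.5 CPM and 75.6, 73.02, 78.2, 82.3 and 72.7 CPM. Its combination libraries were all higher, and the log2 change was 0.22 (SE 0.051, adjusted p = 0.000494), but nothing of this was left with the correction (−0.023, SE 0.047, adjusted p = 0.699).

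Immediate early genes, which respond within minutes to growth factors and inflammatory signals, mostly fell. Fos (GeneID 14281, chromosome 12, 85520664 to 85524048) had 58.9, 44.7, 46.1, 58.5 and 66.3 CPM with DMSO and 14.5, 12.1, 12.6, 16.6 and 14.3 CPM with the combination. Each DMSO library was well above every combination library, and the log2 fold change was −1.97 (SE 0.10, adjusted p = 8.14e-15) and −2.12 (SE 0.10) corrected. Egr1 (−1.11, corrected −1.14), Myc (−0.84, corrected −0.95) and Nr4a1 (−1.196, corrected −0.99) fell too. Dusp1, a phosphatase that ends MAP kinase signals, fell from 46.7 ± 5.34 CPM to 25.6 ± 1.31 CPM (−0.86, SE 0.072, adjusted p = 7.4e-11, corrected −1.04). Egr2 fell by 0.96 (corrected −0.72), with 33.2% of its exon bases also in Ado on the opposite strand. Jund, a member of the AP-1 family that is expressed at rest, rose from 67.9 ± 5.08 CPM to 100.2 ± 4.73 CPM (0.56, SE 0.051, adjusted p = 3.29e-10, corrected 0.51). Of 23 tested genes 4 rose and 15 fell, and 3 rose and 14 fell in both fits, with a median of −0.42 (−0.40 corrected). Ier3, which is short (1090 bases), rose by 0.17 (SE 0.062, adjusted p = 0.0157) without the correction and fell with it (−0.17, SE 0.059, adjusted p = 0.0174), and its rise was lost when DMSO 2 or combination 4 was left out.

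Ligands and enzymes that act on T cells are of interest here because the series title speaks of regulatory T cells. Of 19 tested genes 6 rose and 8 fell, close to the 31.9% and 32.9% over all genes, and 4 rose and 7 fell in both fits. Cd276 (GeneID 102657, chromosome 9, 58431583 to 58462316), the checkpoint ligand B7-H3, had 21.6, 19.2, 20.96, 20.9 and 21.1 CPM with DMSO and 11.9, 13.4, 11.2, 10.4 and 12.3 CPM with the combination. Icosl, the ligand of the T cell costimulator ICOS, had 24.9, 24.9, 22.8, 24.2 and 25.7 CPM and 16.9, 15.2, 17.6, 17.8 and 17.6 CPM. Both were lower in every combination library, with log2 fold changes of −0.81 (SE 0.068, adjusted p = 8.11e-11) and −0.53 (SE 0.058, adjusted p = 1.16e-08), and −0.83 (SE 0.066) and −0.56 (SE 0.058) corrected. Havcr2, which encodes the receptor TIM-3, fell by 0.36 (corrected −0.43), and Arg1, the arginase gene, fell by 0.86 (corrected −1.11) at a level of 1.06 ± 0.1903 CPM with DMSO. Cd274, which encodes the checkpoint ligand PD-L1, rose by 0.31 (corrected 0.37), Cd86, a costimulatory ligand, by 0.21 (corrected 0.22) and Cd200r1, an inhibitory receptor, by 0.45 (corrected 0.26). Sirpa, which encodes a receptor for the signal CD47, fell by 0.25, a call that was lost with the correction (−0.062, SE 0.028, adjusted p = 0.0579). Ido1, Ccl17, Ccl22 and Pdcd1lg2 had at most 4 counts in any of these libraries.

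Genes of the MHC class II pathway, which presents antigen to helper T cells, mostly rose without the correction. Of 11 tested genes 9 rose and none fell, 7 rose and none fell with the correction, and 6 rose in both fits. H2-Aa, the alpha chain of an MHC class II molecule, had 5.000, 5.25, 5.72, 4.02 and 4.74 CPM with DMSO and 11.5, 9.58, 10.2, 8.29 and 7.95 CPM with the combination. The groups were apart, and the log2 change was 0.94 (SE 0.14, adjusted p = 1.51e-06) and 0.61 (SE 0.15) corrected. Ciita, the transactivator of these genes, rose by 0.75 (corrected 0.99), and Cd74, the invariant chain gene, by 0.53 (corrected 0.26). Ctss, a lysosomal protease that trims the invariant chain, rose by 0.35 (SE 0.041, adjusted p = 2.85e-08) but not with the correction (0.087, SE 0.043, adjusted p = 0.0831).

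By the same limits, the largest fall was in a protease inhibitor. Serpinb2 (GeneID 18788, chromosome 1, 107439153 to 107453330), an inhibitor of plasminogen activators, had 9.64, 8.14, 7.46, 12.2 and 13.8 CPM with DMSO and 1.22, 1.37, 1.13, 2.21 and 1.21 CPM with the combination. Xylt1 (GeneID 233781, chromosome 7, 116980214 to 117266853), which starts the sugar chains of proteoglycans, had 26.1, 25.8, 23.4, 20.5 and 22.2 CPM and 7.32, 4.96, 5.05, 4.201 and 3.34 CPM. In neither gene did the groups come close. The log2 fold changes were −2.84 (SE 0.22, adjusted p = 2.69e-11) and −2.23 (SE 0.15, adjusted p = 8.86e-13), and −3.00 (SE 0.22) and −2.26 (SE 0.15) corrected. Ccr3, the eotaxin receptor, had 30.1, 27.6, 27.96, 27.3 and 30.5 CPM and 7.22, 7.18, 6.23, 9.25 and 7.95 CPM. Again the DMSO libraries were all higher, and the log2 change was −1.93 (SE 0.079, adjusted p = 1.74e-16) and −1.91 (SE 0.078) corrected.

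Pcdh7, a protocadherin gene with a long genomic span, had 115, 97.6, 96.05, 112 and 128 CPM with DMSO and 37.04, 33.1, 33.99, 37.8 and 34.7 CPM with the combination. The groups did not overlap, and the log2 fold change of −1.63 (SE 0.083, adjusted p = 9.99e-15) became −1.39 with the length correction and −1.23 with span taken out as well. Elk4, an ETS transcription factor that works with the serum response factor, had 12.1, 11.9, 11.8, 11.8 and 11.2 CPM and 4.64, 3.25, 2.85, 2.498 and 3.05 CPM. Every combination library was lower (−1.83, SE 0.12, adjusted p = 1.46e-12, corrected −1.69, SE 0.12), but 53.7% of its exon bases also lie in Mfsd4a on the opposite strand. Also among the 12 were Nptx1, a neuronal pentraxin (−2.13, SE 0.13, adjusted p = 4.2e-13) and Dhrs9, a short-chain dehydrogenase (−1.95, SE 0.10, adjusted p = 1.79e-14). AY036118, a transcript on chromosome 17, had 6237, 4936, 6952, 7536 and 6044 CPM with DMSO and 4634, 1116, 2213, 1012 and 770.3 CPM with the combination. It was lower in all combination libraries but uneven among them, and its log2 fold change was −1.70 (SE 0.34, adjusted p = 9.24e-05).

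Genes of the extracellular matrix and of its proteases mostly fell in both fits. Of 19 genes 1 rose and 15 fell, with or without the correction, and the medians were −0.81 and −0.87. Fn1 (GeneID 14268, chromosome 1, 71624632 to 71692439), the fibronectin gene, had 1691, 1460, 1369, 1459 and 1251 CPM with DMSO and 622, 595, 536, 499 and 577 CPM with the combination. Adam8, a membrane metalloprotease of leukocytes, had 1404, 1234, 1253, 1419 and 1597 CPM and 654, 629.9, 555, 663 and 603 CPM. Both were abundant and lower in every combination library, with log2 fold changes of −1.35 (SE 0.10, adjusted p = 5.74e-12) and −1.15 (SE 0.065, adjusted p = 6.64e-14), and −1.12 (SE 0.085) and −1.08 (SE 0.064) corrected. Plau, the urokinase gene, fell from 287 ± 58.1 CPM to 145 ± 20.2 CPM (−0.98, SE 0.12, adjusted p = 7.17e-08). Collagenase 3 (Mmp13) fell by 0.81 (corrected −0.89) and gelatinase B (Mmp9) by 0.91 (corrected −0.87), as did the inhibitor Timp3 by 0.94 (corrected −0.83). Mmp8, the neutrophil collagenase, was the gene that rose, from 28.2 ± 2.67 CPM to 41.5 ± 1.65 CPM (0.56, SE 0.064, adjusted p = 2.65e-08). Markers of fibroblasts and stroma moved in the same direction, with all 5 tested members lower and 3 of them in both fits. Among these Pdgfrb changed most (−0.58, corrected −0.41) and Col1a1 least (−0.18, corrected −0.013), a call lost without DMSO 1 or 3 or combination 3 or 4; their part in the matrix list was not tested.

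**Figure D5:**
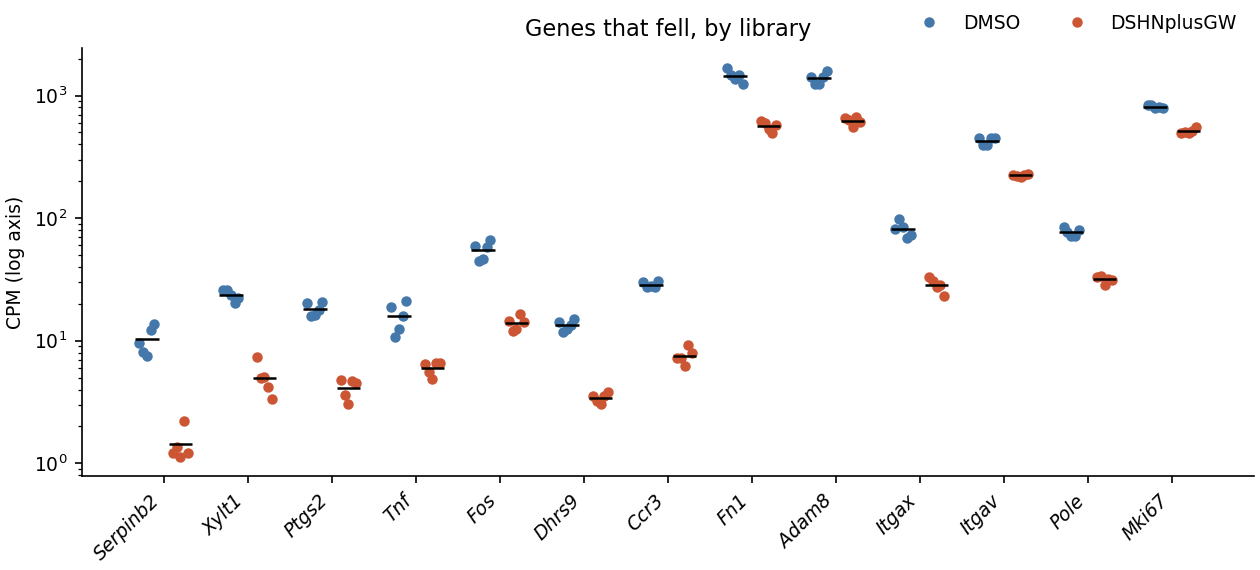
CPM (log axis) of 13 genes that fell, in the 5 DMSO libraries (blue) and the 5 combination libraries (red), with group means as lines. The combination libraries lie below all DMSO libraries for each gene shown, from Serpinb2 at 1.13 to 2.21 CPM against 7.46 to 13.8 CPM to Mki67 at 493 to 549 CPM against 785 to 844 CPM.

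Integrins, the receptors by which cells hold on to this matrix, fell almost without exception. Of 20 tested genes 17 fell and none rose, without and with the correction, with medians of −0.73 and −0.54 (−0.50, with 1 higher and 16 lower, with span taken out as well). Itgax (GeneID 16411, chromosome 7, 127728697 to 127749829), which encodes CD11c, had 81.9, 97.6, 84.9, 69.3 and 73.00 CPM with DMSO and 32.8, 30.9, 27.2, 28.3 and 23.1 CPM with the combination. Itgav, the alpha chain of vitronectin receptors, had 450, 394, 394, 447 and 453 CPM and 224, 222, 218, 226 and 231 CPM. No libraries overlapped for either gene, and the log2 fold changes were −1.51 (SE 0.12, adjusted p = 2.93e-11) and −0.93 (SE 0.043, adjusted p = 1.67e-15), with −1.42 (SE 0.12) and −0.68 (SE 0.040) corrected. Itga5, a fibronectin receptor chain, fell by 1.00 (corrected −0.91), Itgal by 0.97 (corrected −0.82) and Itgb3 by 0.88 (corrected −0.71). Itgb2, the beta chain shared by the leukocyte integrins, fell by 0.25 (corrected −0.29). Itgb5 did not pass in either fit (−0.088, SE 0.044, adjusted p = 0.0808, corrected −0.070), and was the gene that was higher with span taken out (0.13).

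Genes for the uptake of dying cells changed in both directions. Gas6, the bridging ligand, had 259, 277, 276, 272 and 261 CPM with DMSO and 527, 544, 558, 505 and 509 CPM with the combination. Mertk, its receptor and an LXR target, had 120.5, 133, 118, 108 and 99.3 CPM and 225, 226, 221, 212 and 227 CPM. Ligand and receptor were higher in every combination library, with log2 fold changes of 0.97 (SE 0.034, adjusted p = 4.18e-18) and 0.94 (SE 0.064, adjusted p = 1.98e-12), and 0.89 (SE 0.032) and 1.16 (SE 0.055) corrected. Timd4, a receptor for exposed phosphatidylserine, rose by 1.00 (corrected 0.88). The related receptor gene Tyro3 (−1.04, corrected −0.92), the bridging protein gene Mfge8 (−0.28, corrected −0.43) and Cd36 (−0.29, corrected −0.23) fell, although the call of Cd36 was lost with span taken out as well (−0.059, adjusted p = 0.0746). Of 18 genes 6 rose, close to the 31.9% over all genes, and 10 fell, and 6 and 9 of them did so in both fits; with span taken out as well, 7 rose and 7 fell.

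Among markers of the macrophages themselves more genes fell than rose, above all with the correction. Of 10 genes 3 rose, close to the 31.9% over all genes, and 5 fell, against 32.9%. With the correction 2 rose and 8 fell, and 1 gene was called with opposite signs. The medians were −0.084 and −0.26 corrected. The median exon length of the list was 2969.5 bases, against 3758 over all genes tested. In both fits 2 rose and 5 fell, with Mertk, described above, among those that rose. Adgre1, which encodes F4/80, went from 1727 ± 119.8 CPM to 1281 ± 67.7 CPM (−0.43, SE 0.057, adjusted p = 2.85e-07, corrected −0.43, and −0.22 with span taken out as well), and Csf1r, the M-CSF receptor, from 1826 ± 94.3 CPM to 1489 ± 111 CPM (−0.29, SE 0.063, adjusted p = 0.000196, corrected −0.25). Cd14, the lipopolysaccharide coreceptor, fell by 0.70 (corrected −0.93). Spp1, the osteopontin gene, had 1317, 1234, 1333, 1454 and 1533 CPM with DMSO and 774, 747, 750.1, 851 and 740.2 CPM with the combination. It was lower in every combination library (−0.83, SE 0.048, adjusted p = 8.91e-14, corrected −1.06, SE 0.041), while other genes of lipid-laden macrophages, Lgals3 (0.67, SE 0.036, adjusted p = 2.26e-14, corrected 0.40) and the fatty acid binding protein gene Fabp5 (0.92, SE 0.044, adjusted p = 2.92e-15, corrected 0.55), rose. Of these 15 genes 10 rose and 3 fell, 9 rose and 5 fell with the correction, and 9 rose and 3 fell in both fits. The medians were 0.37 and 0.22 corrected, and 1 gene was called with opposite signs. Lysosome genes had 17 of 26 higher and 3 lower, and 14 and 3 in both fits, with medians of 0.25 and 0.20. Complement genes were divided, with the properdin gene Cfp at 0.66 (corrected 0.43) and the anaphylatoxin receptor gene C3ar1 at −0.51 (corrected −0.44).

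Few genes of alternative activation, the state that interleukin 4 induces, changed in both fits. Of 12 tested genes 1 rose and 6 fell, and 1 rose and 2 fell in both fits. The gene that rose was Clec10a, a lectin of macrophages and dendritic cells, from 5.05 ± 0.7700 CPM to 10.2 ± 1.497 CPM (1.01, SE 0.12, adjusted p = 7.79e-08, corrected 0.75). Il4ra, the receptor chain for interleukin 4, fell by 0.25 (corrected −0.12), and Mrc1, the mannose receptor gene, by 0.17, a call that was lost with the correction (−0.033). Of 6 tested genes of the aryl hydrocarbon receptor and its targets 1 rose and 3 fell, and 1 each in both fits. The receptor gene Ahr itself went from 11.5 ± 1.502 CPM to 7.29 ± 0.5899 CPM (−0.66, SE 0.10, adjusted p = 4.53e-06, corrected −0.51).

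Most cell cycle genes fell in both fits. Of 24 DNA replication genes none rose and 17 fell, and 1 rose and 21 fell with the correction, with medians of −0.45 and −0.50. Pole (GeneID 18973, chromosome 5, 110434185 to 110485319), the catalytic subunit of DNA polymerase epsilon, had 83.97, 77.7, 70.9, 71.1 and 80.7 CPM with DMSO and 32.8, 33.6, 28.2, 32.1 and 31.5 CPM with the combination. All combination libraries were lower, and the log2 change was −1.28 (SE 0.067, adjusted p = 1.7e-14) and −1.07 (SE 0.060) corrected. Mcm5 and Mcm6, subunits of the replicative helicase, fell by 0.84 and 0.73 (corrected −0.83 and −0.64). Of 24 mitosis genes 3 rose and 18 fell, and 1 rose and 18 fell in both fits. Mki67, the proliferation marker Ki-67, had 844, 844, 785, 799 and 790.1 CPM and 498, 499.6, 493, 516 and 549 CPM. The groups were clearly apart, and the log2 change was −0.67 (SE 0.044, adjusted p = 1.22e-12) and −0.42 (SE 0.037) corrected. Top2a, a topoisomerase of dividing cells (−0.64, SE 0.037, adjusted p = 9.78e-14, corrected −0.50), and Anln, which works in cytokinesis (−0.80, SE 0.044, adjusted p = 3.17e-14, corrected −0.58), fell as well. Birc5, which encodes the mitotic regulator survivin, was the gene that rose in both fits, with 81.5, 80.5, 81.2, 84.3 and 80.03 CPM with DMSO and 94.3, 100, 108, 111 and 105 CPM with the combination. Its libraries did not overlap, and the log2 fold change was 0.35 (SE 0.053, adjusted p = 2.45e-06) and 0.35 (SE 0.053) corrected.

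Stress responses gave no single direction. Atf4, the transcription factor of the integrated stress response, had 140.1, 129, 139.5, 153 and 159 CPM with DMSO and 209.5, 212, 226, 239.6 and 231 CPM with the combination, and its relative Atf5 had 53.7, 51.5, 59.99, 57.2 and 53.6 CPM and 107, 109, 118, 107 and 109 CPM. The combination libraries were all higher, with log2 fold changes of 0.63 (SE 0.060, adjusted p = 8.55e-10) and 0.99 (SE 0.044, adjusted p = 7.9e-16), and 0.42 (SE 0.053) and 0.82 (SE 0.041) corrected. Of the 20 genes of this response, however, 9 rose and 5 fell, and 7 and 3 in both fits. Among p53 targets and cell death genes, 11 of 21 rose and 5 fell, and 8 and 4 in both fits. Bbc3, which encodes the death promoting protein PUMA, rose by 1.05 (SE 0.093, adjusted p = 2.28e-10, corrected 1.10) and Mcl1, a survival gene, by 0.48 (SE 0.037, adjusted p = 1.52e-11, corrected 0.72). Gadd45a rose by 1.04 (corrected 0.73), with 19.4% of its exon bases also in another gene on the opposite strand. Of 20 genes of the unfolded protein response only 3 rose and 2 fell in both fits. The sensor gene Atf6 fell by 0.59 (corrected −0.36).

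Heat shock and interferon genes shifted down with the correction. Of 18 heat shock genes 4 rose and 6 fell, and 2 rose and 11 fell with it. Of 25 interferon response genes 1 rose and 8 fell, and 2 rose and 12 fell with it; without DMSO 2, 13 fell uncorrected, and the number that rose was 2 without DMSO 4 or 5 or combination 2 or 4. Irf7, a factor that amplifies the response (−0.78, corrected −0.95), fell in both fits, while Bst2, a membrane protein that tethers viruses (0.75, corrected 0.35), rose. In glycolysis, the glucose transporter gene Slc2a1 fell from 69.4 ± 6.36 CPM to 48.9 ± 4.04 CPM (−0.50, SE 0.057, adjusted p = 1.88e-08, corrected −0.58), the lactate exporter gene Slc16a3 fell by 0.62 (corrected −0.59; 10.3% of its exon bases are also in another gene on the opposite strand), and the aldolase gene Aldoc rose from 31.9 ± 1.42 CPM to 56.3 ± 4.32 CPM (0.82, SE 0.047, adjusted p = 1.03e-13). The list of 25 had 4 higher and 11 lower, and 2 and 9 in both fits.

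Of 16 clock genes 7 rose and 3 fell, and 6 rose and 1 fell in both fits. Dbp, an output factor of the clock, had 6.26, 7.15, 6.91, 5.53 and 5.397 CPM with DMSO and 16.7, 17.7, 16.9, 14.8 and 13.2 CPM with the combination. All combination libraries were higher (1.34, SE 0.11, adjusted p = 7.64e-11, corrected 1.24, SE 0.11), with 21.3% of its exon bases also in Sphk2 on the opposite strand. Nr1d2, which encodes the clock repressor REV-ERB beta, rose by 0.62 (SE 0.053, adjusted p = 1.2e-10, corrected 0.84) and Bhlhe41, another repressor of the clock, by 0.63 (SE 0.039, adjusted p = 3.53e-13, corrected 0.81).

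Families of short housekeeping genes moved most with the correction. Of 84 cytosolic ribosomal protein genes 82 rose and none fell, with a median of 0.50. With the correction 54 rose and 8 fell, with a median of 0.12, and 6 were called with opposite signs. Among 80 subunits of the respiratory chain, 73 rose and 1 fell, which became 39 and 8 (medians 0.48 and 0.10), and the gene that fell lost its call without combination 4 or 5. Proteasome subunits went from 27 higher and 2 lower of 38 to 7 higher and 9 lower (medians 0.25 and −0.007). Hosts of small nucleolar RNAs, named Snhg, went from 9 higher of 14 to 4 higher and 1 lower. Zinc finger genes of the Zfp series, with a median exon length of 4864 bases, went the other way, from 57 higher and 105 lower of 338 to 89 higher and 67 lower, but with span taken out as well 56 were higher and 79 lower. Kinesin and dynein motor genes had 24 of 38 lower, and 21 with the correction. Kif3a, a kinesin of cilia and vesicle transport, was among the exceptions, with 64.7, 75.6, 68.9, 64.3 and 60.7 CPM with DMSO and 181, 189, 189.5, 153 and 166 CPM with the combination. Its groups did not overlap, and the log2 fold change of 1.39 (SE 0.079, adjusted p = 6.91e-14) rose to 1.64 (SE 0.077) with the correction. Malat1, a nuclear long noncoding RNA, varied within both groups, with 256, 235, 423, 505 and 319 CPM and 471, 419.8, 686, 751 and 760 CPM. The groups overlapped, although the test passed in both fits (0.83, SE 0.22, adjusted p = 0.00211, corrected 1.03, SE 0.23, adjusted p = 0.000470).

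The direction of 162 genes depended on the correction, 86 going from higher to lower and 76 from lower to higher. Tyrobp (GeneID 22177, chromosome 7, 30113207 to 30117007), the signalling adaptor DAP12 of the receptor TREM2, has 575 bases of exon. It had 424, 436, 458, 443 and 449.5 CPM with DMSO and 526, 544, 547, 513 and 511 CPM with the combination. Every combination library was higher in CPM (0.26, SE 0.031, adjusted p = 6.89e-08), and the corrected change was of the opposite sign (−0.21, SE 0.035, adjusted p = 9.32e-06). Sod1, superoxide dismutase 1, went from 0.23 (SE 0.043, adjusted p = 5.5e-05) to −0.22 (SE 0.048, adjusted p = 0.000303), with 47.4% of its exon bases also in Scaf4 on the opposite strand. Gng5, a G protein subunit, went from 0.25 to −0.23, Lsm3, a subunit of a complex on U6 RNA, from 0.22 to −0.23, and Mgp, an inhibitor of calcification, from 0.23 to −0.23, with the uncorrected call lost without DMSO 2, 3 or 5 or combination 1, 3 or 4. Cd99, a surface glycoprotein whose 206 exon bases lie on an unlocalised scaffold of chromosome 4, went from 0.33 to −0.27. Manf, a chaperone of the endoplasmic reticulum, went from 0.17 to −0.22, and its rise was lost without DMSO 2 or 3 or combination 4. Edem1, which sorts misfolded proteins for degradation and has 10749 exon bases, was an example of the other direction. It had 371, 367, 370.4, 365 and 363 CPM with DMSO and 341, 345, 337, 319 and 325 CPM with the combination. The DMSO libraries were all higher in CPM (−0.14, SE 0.028, adjusted p = 0.000123), and the corrected change was 0.11 (SE 0.028, adjusted p = 0.00115). With span taken out as well Edem1 had no call in either direction (0.0045, adjusted p = 0.911).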

How the data were processed

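RNA of mouse bone marrow-derived macrophages was sequenced in 20 libraries, 5 for each of 4 treatments. The authors deposited raw counts of reads per gene, made with featureCounts 2.0.0 over RefSeq exons on GRCm39, per the file headers, after alignment with STAR, per the submitters' processing notes. The kit keeps the strand, per the labels, but the command in the headers has no strand option, so reads of both strands were counted together; reads of several positions or genes were left out. Of 46318 genes 44749 took a symbol from a RefSeq table, and the other 1569 held 0.474% of counts.

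After filterByExpr 13307 genes were left. edgeR 4.0.16 (R 4.3.3; TMM, quasi-likelihood test, Benjamini-Hochberg adjustment) was fitted to all 20 libraries with 1 mean per treatment (biological coefficient of variation 0.0536). For the length correction, each library's log2 CPM (prior count 2) less the gene mean over libraries was fitted by a natural spline (5 df) of log2 exon length, used as an offset. Library measures were compared by two-sided exact permutation tests (252 splits). Replicate libraries differed beyond counting error (chi-square over its df 2.63 to 13.3). The scripts were checked on simulated data.

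The members and lists were chosen with earlier results of these data known. Named genes include the 12 largest rises and falls among genes called alike in both fits. These had a mean of at least 5 CPM in either group and no overlap of libraries. Also named are the 6 clearest of opposite sign, up to 5 per list by smallest adjusted p, and members whose call changes with the correction. Other members given by symbol were picked after their values were seen, among them Rxra, Npc1, Abca7, Myo1e, Tmem26, Slc7a11, Ccl2, Ccl7, Fn1, Plau, Mmp8, Birc5, Adgre1, Csf1r and Col1a1. Promoters are from RefSeq on GRCm38.p6, and no position was carried between builds. Alternatives were other size factors and filters, DESeq2 1.42.0, other corrections, the 10 compared libraries alone, a replicate block, and each library left out in turn. Some genes that the naming rule chose are not reported here.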

Additional observations from a re-analysis of the deposited data

Results flagged for a closer look

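In 13 of 276 groups of 5 libraries, the highest or lowest value lay further from the others than Dixon's test at the 95% level allows (a gap over 0.71 of the group's range), and chance flags about 1 group in 20. Values are CPM. Combination 4 was low for the transporter gene Abca1 (1131, the others 1252 to 1295) and the desaturase gene Scd1 (88.1, the others 113.6 to 122.9), and high for Fdft1 (44.4) and Serpinb2 (2.21). Combination 3 was low for Mcm5 (88.1), Mcm6 (167.3) and Anln (102.8) and high for Atf5 (118). Combination 1 was low for Cd38 (28.8) and high for Nptx1 (3.19). DMSO 3 was high for Mid1ip1 (79.0) and Ctss (2123), and DMSO 5 was low for Rxra (97.2). Abca1, Scd1, Fdft1, Serpinb2, Mcm5, Mcm6, Anln, Atf5, Cd38, Nptx1, Mid1ip1, Ctss and Rxra kept their call when the library in question was left out.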

How the results depend on the processing

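The numbers of genes that rose and fell, without and with the length correction, stayed within 1.5 times under every alternative run, and no scaling moved the median of all genes by over 0.1. Leaving out 1 library at a time gave 4002 to 4213 genes higher and 4224 to 4349 lower, 3548 to 3801 and 3710 to 3862 with the correction, and 2679 to 2881 and 3137 to 3259 in both fits, with 111 to 146 genes of opposite sign. The slope difference ran from −0.163 to −0.154, and the difference in mitochondrial rRNA and tRNA share from 0.105 to 0.116 percentage points. The DESeq2 Wald test called 4118 genes higher and 4339 lower. The 162 genes of opposite sign became 0 where no low-count filter was used and the trend was fitted to 27110 genes, 274 where genomic span was taken out as well and 265 where span and GC content were; the cause was not tested.

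The labels do not say what the replicate numbers share. Deviations of DMSO and combination libraries with the same number had correlations of 0.0990, 0.119, 0.101, 0.117 and 0.0426, and DMSO 1 to 4 correlated best with their own number and DMSO 5 with number 4 (0.176), a hint of pairing from the data and not from the design. With the replicate block 4253 genes rose and 4387 fell, and 3865 and 3923 with block and length correction.

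Of 78 counts over lists, 28 moved by more than 1.5 times under the length correction. Named genes changed sign only under corrections for gene structure. In the order length, straight line on length, length and span, and those with GC, the log2 fold changes were −0.17, −0.10, −0.16 and −0.068 for Ier3, −0.22, −0.16, −0.24 and −0.22 for Manf, 0.11, 0.11, 0.0045 and 0.014 for Edem1, −0.27, −0.33, −0.34 and −0.48 for Cd99, −0.23, −0.19, −0.27 and −0.30 for Gng5, −0.23, −0.18, −0.26 and −0.25 for Mgp, −0.22, −0.17, −0.25 and −0.26 for Sod1, −0.23, −0.18, −0.26 and −0.26 for Lsm3, and −0.21, −0.17, −0.24 and −0.21 for Tyrobp. Nfkbia reached −0.023, −0.049 and −0.0090 (all but the straight line), and Itgb5 0.13 and 0.15 with span and with span and GC. Genes under the filter, such as Nr0b2 and Apoc2, were not tested at this depth.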
